A study of Mus musculus with 12 samples.

Results

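The nuclear genes that encode subunits of the oxidative phosphorylation complexes, and a small set of factors that assemble them, were examined in HT22 cells. Members were the genes whose names begin with Nduf, Sdhaf, Uqcr, Cox4 to Cox8 or Atp5, together with Sdha, Sdhb, Sdhc and Sdhd, if their FPKM reached 0.5 in at least 3 libraries. FPKM is a fragment count scaled by transcript length and by library size, so levels can be compared between genes per unit of length. Of 96 matching names among 24343 uniquely named genes, 90 passed. The rule uses names and FPKM levels, not differences between groups. The 6 names that did not pass were Cox4i2, Cox6b2, Cox7a1, Cox8b, Cox8c and Ndufa4l2, most of them tissue-restricted or inducible forms of complex IV subunits. Of these, Cox6b2, Cox8b and Cox8c were listed at 0 in all libraries, while Cox4i2 (0.614 FPKM) and Cox7a1 (1.34 FPKM) were above 0 in a single siNCOA4+DFO library each. Ndufa4l2 was at 0.334 to 0.434 FPKM in the 3 siNCOA4+DFO libraries and at 0 in all others except siControl replicate 2 (0.317) and siNCOA4 replicate 3 (0.285). The 90 members comprised 7 core and 29 accessory subunits of complex I, 4 subunits of complex II, 8 of complex III, 14 of complex IV, 15 of complex V and 13 assembly factors. Ndufa4, whose product is a complex IV subunit, was counted with complex IV, and Atp5s and Atp5sl were counted with the factors.

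HT22 is an immortalized mouse cell line derived from hippocampal neurons. Cells were given a negative control siRNA (siControl) or an siRNA against Ncoa4 (siNCOA4) by liposome-mediated transfection, and were kept at normal iron or exposed to DFO (deferoxamine), an iron chelator, at 100 µM for 24 h. The 4 groups, siControl, siNCOA4, siControl+DFO and siNCOA4+DFO, had 3 biological replicates each, 12 libraries of total RNA in all. Ncoa4 encodes the cargo receptor that delivers ferritin to lysosomes for the release of its iron. Since 1 Ncoa4 siRNA sequence was used, loss of Ncoa4 and any other action of that siRNA cannot be told apart in these groups.

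Oxidative phosphorylation passes electrons from NADH through complex I, or from succinate through complex II, to complex III, cytochrome c and complex IV, and the proton gradient that results drives ATP synthesis by complex V. Iron is built into this chain as iron-sulfur clusters in complexes I, II and III and as heme in complexes II, III and IV. The complexes are assembled from many nuclear-encoded subunits and, except for complex II, a few subunits made inside the mitochondrion, which were not analysed here, and neurons depend heavily on the ATP they supply.

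The 12 libraries differed in depth by at most 1.52-fold, as estimated from the smallest steps between low FPKM values. Small RNA genes held 36.5 to 41.4% of the summed FPKM without DFO, 42.2 to 46.1% in siControl+DFO and 48.1 to 52.4% in siNCOA4+DFO. Ncoa4 was lower in every siNCOA4 library than in every siControl library, at 0.770 to 1.57 against 6.02 to 8.70 FPKM. Of 11 neuronal marker genes 4 passed the filter on low values. They were Dlg4, Tubb3, Syn1 and Camk2a, with siControl means of 13.3, 7.77, 5.52 and 0.585 FPKM. In siControl+DFO the same means were 7.68, 12.5, 5.32 and 0.0903 FPKM, so that changes in opposite directions lie within the sum of the list. The neuronal list summed to 25.4 to 29.8 FPKM in siControl and 21.6 to 27.4 in siNCOA4. With DFO it summed to 24.6 to 26.6 FPKM in siControl+DFO and 19.0 to 24.3 in siNCOA4+DFO. Rbfox3, Map2, Snap25, Nefm and Chat were listed at 0 in all siControl libraries, while all 6 fibroblast and mesenchymal markers passed. The latter summed to 3115 to 3539 FPKM in siControl and to 1849 to 1927 FPKM in siControl+DFO, and to 2304 to 2502 in siNCOA4 and 1635 to 1831 in siNCOA4+DFO. Vim held much of this sum, with means of 1600 FPKM in siControl and 1412 in siControl+DFO. The same means were 1002 and 318 for Col1a2, 383 and 94.2 for Col1a1, and 289 and 57.1 for Col3a1. They were 25.7 and 3.07 for Pdgfrb and 7.90 and 1.73 for Dcn. Of 8 glial markers 2 passed, and the list, nearly all of it Slc1a3, summed to 37.5 to 46.4 FPKM in siControl, 22.7 to 26.6 in siNCOA4, 3.79 to 6.15 in siControl+DFO and 5.37 to 13.6 in siNCOA4+DFO. A list of 6 genes of apoptosis and growth arrest, of which Pmaip1 was listed at 0 in all libraries, summed to 101 to 107 FPKM in siControl, 155 to 169 in siNCOA4, 3356 to 3762 in siControl+DFO and 1712 to 2697 in siNCOA4+DFO. Mdm2 held most of this sum with DFO. Its means were 30.7 FPKM in siControl, 50.4 in siNCOA4, 2726 in siControl+DFO and 1597 in siNCOA4+DFO. For Cdkn1a the means were 15.0, 53.2, 445 and 340 FPKM in the same order. The other expressed genes of the list had siControl and siNCOA4 means that lay close together. These were 3.24 and 3.47 FPKM for Bbc3, 41.5 and 42.6 for Ddit3, and 12.5 and 11.8 for Trib3. The part of these differences in the results that follow was not tested. In bulk RNA, fewer cells of one state and less RNA per cell cannot be told apart, and FPKM gives a share of each library rather than an amount per cell.

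Oxidative phosphorylation transcripts were abundant in untreated HT22 cells. The median member had 64.8 FPKM in siControl, against 11.1 FPKM for the 11924 genes that passed the same filter. On this per-length scale the median level was 155 FPKM for complex V, 154 for complex III, 135 for complex IV, 59.1 for complex I accessory subunits, 55.0 for complex I core subunits, 54.6 for complex II and 5.83 for the assembly factors. Atp5b, the catalytic beta subunit of ATP synthase, stood highest at 548 ± 44.4 FPKM (mean ± SD, n = 3), followed by the complex IV subunit Cox6c at 495 ± 105 FPKM, and the spreads of these highest levels overlapped. The 5 marker subunits, 1 from each complex, were expressed in every library. In siControl, Cox4i1 of complex IV had 343 ± 65.3 FPKM, the ATP synthase alpha subunit Atp5a1 286 ± 4.53, the Rieske iron-sulfur protein Uqcrfs1 71.4 ± 9.85, the complex II iron-sulfur subunit Sdhb 60.9 ± 7.83 and the largest complex I subunit Ndufs1 39.9 ± 1.32. Of the 77 structural subunits, 50 were among the top 10% of genes tested by siControl level.

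The library siControl replicate 1 stood apart for these genes. The median over members of its difference from the siControl mean was -0.23 on the log2 scale, against 0.08 and 0.15 in siControl replicates 2 and 3, -0.002 to 0.091 in siNCOA4 and -0.37 to -0.28 in the 6 DFO libraries. Its summed member FPKM was 7627, close to the 7035 to 7674 of the DFO libraries, while the median over all genes tested was 0.02. It also had the lowest relative depth of the siControl libraries and, at 41.4%, their highest share of small RNA. Complex IV differed most in it, with a median difference of -0.32, lower than in any DFO library. The main counts of members in comparisons with siControl are therefore given with and without this library.

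**Figure D1:**
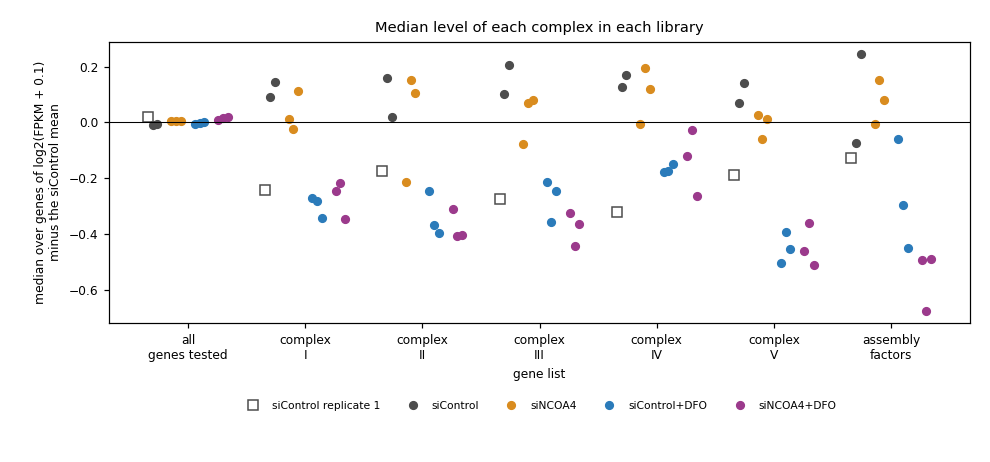
Median over the genes of each complex of log2(FPKM + 0.1) minus the siControl mean (vertical axis), for each of the 12 libraries (points, coloured by group). The open square, siControl replicate 1, lies at -0.23 over all members, nearer to the DFO libraries than to the other siControl libraries in complexes I, III and IV, while its median over all genes tested is 0.02. In complexes II and V, at -0.17 and -0.19, it lies between the DFO libraries and the other siControl libraries, and again nearer to the DFO libraries.

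Differences between groups were taken from a limma fit of all 12 libraries on log2(FPKM + 0.1), a scale on which fold changes of low genes are understated, with p-values adjusted by the Benjamini-Hochberg method over the 11924 genes. Genes were called at an adjusted p below 0.05. The first comparison asked how iron chelation alone affected these transcripts. With DFO, 45 of the 90 members fell and 4 rose in siControl cells, 50% and 4.44%, while over all genes tested 25.7% fell and 27.7% rose. The median log2 fold change of the members was -0.37 and that of all genes -0.01. A second rule that also required a fold change above 2 was passed by 2 members, Ndufb10, which fell, and Cox6a2, which rose, and by 18.8% of all genes. Without siControl replicate 1, 59 members fell and 3 rose, with a median of -0.44, while 24.2% of all genes fell and 26.6% rose.

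Genes of every complex fell, in the smallest proportion in complex IV. In complex I, 6 of 7 core subunits fell (median log2 fold change -0.50) and 13 of 29 accessory subunits fell with 1 rise (median -0.32). In complex II 3 of 4 fell (median -0.34), and in complex III 4 of 8 fell and 1 rose (median -0.31). In complex V 12 of 15 fell (median -0.44), and the other 3, Atp5g2, Atp5j2 and Atp5l, had log2 fold changes below 0 without passing the test. In complex IV 4 of 14 fell and 1 rose (median -0.16), and of the assembly factors 3 of 13 fell and 1 rose (median -0.45). The falls in these 2 classes, 28.6% and 23.1%, were near the 25.7% of all genes tested that fell. The differences between complexes were not tested. Without siControl replicate 1, complex IV had 7 falls (median -0.34) and complex V 15 of 15. Without it, 19 of 29 accessory subunits of complex I fell and 1 rose, and in complex III 6 of 8 fell and 0 rose.

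**Figure D2:**
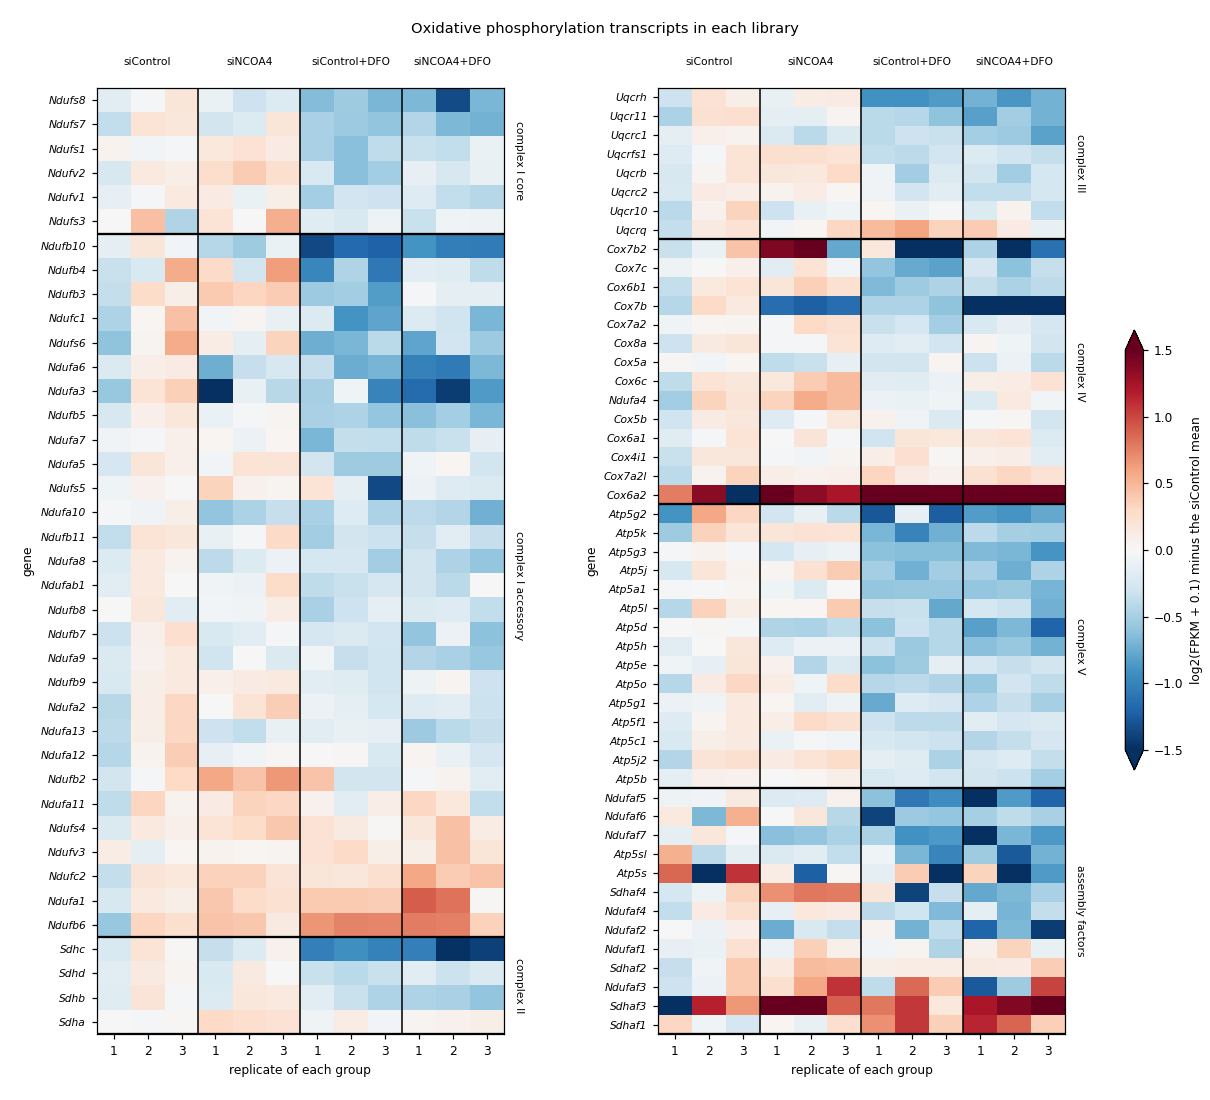
Log2(FPKM + 0.1) minus the siControl mean for 89 of the 90 members (rows, grouped by complex and ordered by the change with DFO in siControl cells) in each of the 12 libraries (columns). Blue marks lower and red higher values, with colours saturating at 1.5. Blue fills most rows of complexes I, II, III and V in the 6 DFO libraries, while Cox7b is also blue in siNCOA4 and Cox6a2, Sdhaf1 and Ndufb6 are red with DFO.

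Among complex I genes the largest fall was in Ndufb10, an accessory subunit of the membrane arm (chr17:24722060-24724423, GRCm38). It was 114, 142 and 122 FPKM in siControl replicates 1 to 3 and 48.8, 55.5 and 54.1 FPKM in siControl+DFO. The siControl values were all above the DFO values, and siControl replicate 1 was no exception. The log2 fold change was -1.25 (SE 0.11, adjusted p = 2.41e-06), the smallest p-value of any member in this comparison, and the adjusted p was at most 2.34e-05 when any 1 library was left out. The core subunits form the electron path from NADH to ubiquinone, and 6 of the 7 fell. Ndufs8, which holds a pair of iron-sulfur clusters, fell by 0.62 on the log2 scale (SE 0.16, adjusted p = 0.00521). Ndufs1 fell by 0.50, from 39.9 ± 1.32 to 28.4 ± 2.45 FPKM (SE 0.09, adjusted p = 4.54e-04).

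Ndufb6, another accessory subunit of the membrane arm, moved the other way. Its FPKM was 23.5, 43.8 and 41.3 in siControl and 55.2, 58.6 and 58.1 in siControl+DFO, a log2 fold change of 0.71 (SE 0.20, adjusted p = 0.00928). The groups did not overlap, although the lowest siControl value came from replicate 1. Of the exonic bases of Ndufb6, 39.0% overlap Smim27 on the opposite strand, and whether fragments were counted by strand is not given in the sources used here.

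In complex II, Sdhc, one of the membrane anchors that bind heme, fell the most of the 4 subunits. It was 20.9, 28.4 and 24.9 FPKM in siControl and 11.96, 13.0 and 12.1 FPKM in siControl+DFO, so that the siControl values were well above the DFO values. The log2 fold change was -0.99 (SE 0.15, adjusted p = 1.26e-04). Sdhd, the other anchor, fell by 0.36 (SE 0.10, adjusted p = 0.00986). Sdhb fell by 0.32 with overlapping groups, 53.5 to 69.1 against 44.1 to 54.3 FPKM, and was the weakest of the iron-binding calls (SE 0.12, adjusted p = 0.0437, lost without any of 6 single libraries, with 0.175 at most, without siControl replicate 2). Sdha, the flavoprotein that holds the catalytic site, was at 53.1 ± 0.516 and 53.2 ± 3.55 FPKM, a log2 difference of -0.0003 (SE 0.06).

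Complex III showed changes in both directions. Uqcrh, the hinge protein that contacts cytochrome c1, was 210, 301 and 277 FPKM in siControl and 138, 138 and 144 FPKM in siControl+DFO, and fell by 0.89 on the log2 scale (SE 0.12, adjusted p = 5.2e-05). The 3 DFO values were close together and below all siControl values. Uqcrfs1 fell by 0.35, from 71.4 ± 9.85 to 55.7 ± 2.14 FPKM (SE 0.09, adjusted p = 0.00584). Uqcrq, a small subunit that binds near cytochrome b, was 203, 286 and 302 FPKM in siControl and 361, 391.8 and 329 FPKM in siControl+DFO. These groups did not overlap, and the log2 fold change was 0.47 (SE 0.16, adjusted p = 0.0284), but the call was lost without siControl replicate 1 (adjusted p = 0.116) and without siControl+DFO replicate 1 or 2.

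In complex IV the transcripts that fell were those of the small subunits Cox7c, Cox6b1, Cox7b and Cox7a2. Cox7c went from 84.9, 89.8 and 94.9 FPKM to 59.6, 53.3 and 51.5 FPKM, with no overlap and a log2 difference of -0.71 (SE 0.11, adjusted p = 1.82e-04), although 25.0% of its 75-base transcript stretches are also found in Gm10012 or Gm12338. Cox4i1, Cox5b, Cox6a1 and Cox8a did not pass the test, and their log2 fold changes were 0.12 (SE 0.13), -0.07 (SE 0.14), 0.01 (SE 0.15) and -0.22 (SE 0.13). Cox4i1 was 268, 381 and 380 FPKM in siControl and 362.5, 404 and 343 FPKM in siControl+DFO, 2 groups that overlapped. Cox6a2, the form of subunit VIa found in heart and skeletal muscle, rose from a low level. It was listed at 0.636, 1.01 and 0 FPKM in siControl, 1.46, 1.00 and 0.914 in siNCOA4, 2.42, 1.54 and 3.25 in siControl+DFO and 2.88, 3.22 and 5.57 in siNCOA4+DFO. All DFO values were above all values without DFO. The fitted log2 change in siControl cells was 2.47 (SE 0.70, adjusted p = 0.0102), which depends on the pseudocount since 1 siControl library was listed at 0. Cox6a1, the widely expressed form, had 150 to 213 FPKM in all 12 libraries, so that Cox6a2 remained a small part of the pair. The ratio of Cox6a2 to Cox6a1 was higher in siControl+DFO than in siControl, with an exact two-sided permutation p = 0.1, the smallest that 3 against 3 libraries can give.

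In complex V all 15 log2 fold changes were below 0. Atp5a1 was 282, 285 and 290.5 FPKM in siControl and 190.5, 192.6 and 192.5 FPKM in siControl+DFO, with very little spread in either group, a log2 fold change of -0.57 (SE 0.07, adjusted p = 3.07e-05). Atp5g3, which encodes the membrane c subunit, fell by 0.63, from 194 ± 6.67 to 125 ± 1.04 FPKM (SE 0.08, adjusted p = 2.21e-05). Atp5k, which supports the dimer of the synthase, was 121, 223 and 198 FPKM in siControl and 109, 87.3 and 106 FPKM in siControl+DFO. Its groups did not overlap, with siControl replicate 1 well below the other siControl libraries, and it fell by 0.80 (SE 0.18, adjusted p = 0.00218). Atp5b fell by 0.23 (SE 0.09, adjusted p = 0.0445), a call that was lost under most settings that left out a library (adjusted p up to 0.136, without siControl replicate 2). The c subunit is encoded by Atp5g1, Atp5g2 and Atp5g3, of which Atp5g3 held 72.0 ± 4.54% of the summed FPKM in siControl and 71.6 ± 5.71% in siControl+DFO, a difference well within the spread (exact permutation p = 0.9). Reads could be shared with pseudogenes for some members, most of all for Atp5l, in which 63.4% of 75-base stretches occur in other genes.

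Among the assembly factors, which act on the complexes during their construction and are not part of the finished enzyme, Ndufaf5 fell by 0.88 (SE 0.20, adjusted p = 0.00294), from 4.55, 4.63 and 5.29 to 3.10, 2.23 and 2.47 FPKM. It is a hydroxylase of complex I assembly. Ndufaf7, a methyltransferase of complex I assembly, fell by 0.75 (SE 0.21, adjusted p = 0.00871). Sdhaf1, which helps to insert iron-sulfur clusters into Sdhb, was 15.1, 11.7 and 10.2 FPKM in siControl and 19.6, 25.6 and 15.6 FPKM in siControl+DFO, non-overlapping but close, and rose by 0.70 (SE 0.22, adjusted p = 0.018). The call on Sdhaf1 was lost without siControl replicate 2 or 3 or siControl+DFO replicate 2 (adjusted p up to 0.0828), and 69.6% of its exonic bases overlap E130208F15Rik on the opposite strand.

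Of the 9 members that hold iron-sulfur clusters or heme, Ndufs1, Ndufs7, Ndufs8, Ndufv1, Ndufv2, Sdhb, Sdhc, Sdhd and Uqcrfs1, all 9 fell with DFO in siControl cells, with log2 fold changes from -0.99 to -0.32 and a median of -0.46. Among the other 68 structural subunits 33 fell and 3 rose, with a median of -0.35, while 25.7% of all genes fell. The difference between these lists was not tested. Without siControl replicate 1 the counts were 9 of 9 and 47 of 68, against 24.2% of all genes. In siNCOA4 cells 8 of 9 and 34 of 68 fell with DFO, against 19.6% of all genes. In siNCOA4+DFO against siControl 7 of 9 and 29 of 68 fell, against 23.4%. After scaling to genes other than small RNA genes the latter counts were 4 of 9 and 22 of 68, against 19.0%. Outside the name rule, heme proteins went both ways with DFO in siControl cells. Cytochrome c1 (Cyc1) fell by 0.42 (SE 0.10, adjusted p = 0.00418). Cytochrome c (Cycs) rose by 0.54 without overlap (SE 0.16, adjusted p = 0.0129). Across all genes tested the change with DFO had a Spearman correlation of 0.06 with exon length and -0.13 with siControl FPKM, and across the members 0.04 and 0.01, as descriptions over genes that share the same libraries.

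The second comparison asked whether DFO acted in the same way when Ncoa4 was silenced. In siNCOA4 cells 45 members fell with DFO and 1 rose, 50% and 1.11%, against 19.6% and 23.1% of all genes, and 3 members passed the rule with a fold change above 2, against 11.4%. The median log2 fold change was -0.40. The falls comprised 6 of 7 core and 9 of 29 accessory subunits of complex I, 3 of 4 of complex II, 6 of 8 of complex III, 5 of 14 of complex IV, 13 of 15 of complex V and 3 of 13 assembly factors. These counts rest on libraries that the first comparison did not use, although both took their spread from all 12.

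**Figure D3:**
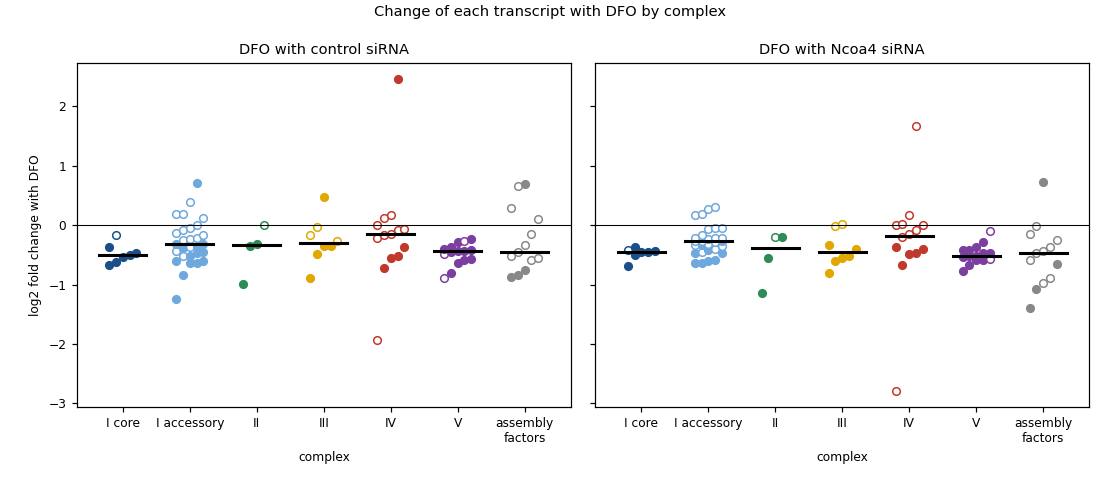
Log2 fold change of each member with DFO (vertical axis) in siControl cells (left) and in siNCOA4 cells (right), by complex. Filled points passed an adjusted p below 0.05, open points did not, and the bar is the median of the complex, which lies between -0.50 and -0.16 on the left.

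The 2 DFO comparisons share no library, and 34 members fell in both, 75.6% of the 45 in each. Over all genes tested, 61.0% of those that fell with DFO in siControl cells also fell in siNCOA4 cells, and 79.9% the other way round. The 34 included 11 complex V subunits, 6 core and 6 accessory complex I subunits, 4 each of complexes III and IV, Sdhb, Sdhc and the factor Ndufaf5. In siNCOA4 cells Sdhc had the largest fall among structural subunits that passed, from 19.3, 21.2 and 25.7 to 11.98, 8.73 and 9.26 FPKM, a log2 fold change of -1.14 (SE 0.15, adjusted p = 6.53e-05). Uqcrh fell by 0.80 (SE 0.12, adjusted p = 1.94e-04), Atp5j, a subunit of the stalk, by 0.78 (SE 0.13, adjusted p = 3.32e-04) and Atp5a1 by 0.53 (SE 0.07, adjusted p = 9.85e-05). Ndufb10 fell by 0.64 (SE 0.11, adjusted p = 7.2e-04). Cox6b1, a subunit on the outer face of complex IV, fell by 0.67 (SE 0.13, adjusted p = 0.0011), and Ndufs6, an accessory subunit of complex I that binds zinc, by 0.64 (SE 0.24, adjusted p = 0.0458). Sdhaf4, an assembly factor for the flavin-bearing Sdha, fell from 11.02, 11.81 and 11.7 to 3.96, 4.22 and 4.80 FPKM, a log2 change of -1.39 (SE 0.31, adjusted p = 0.00291), while in siControl cells its change of -0.52 did not pass the test (SE 0.31, adjusted p = 0.175). Uqcrq changed by 0.03 (SE 0.16) and Ndufb6 by 0.30 (SE 0.20), neither of which passed, and Sdhaf1 was the single member that rose, by 0.73 (SE 0.22, adjusted p = 0.0187), a call that was lost without siNCOA4 replicate 2 or siNCOA4+DFO replicate 1 or 2 (adjusted p up to 0.0824).

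**Figure D4:**
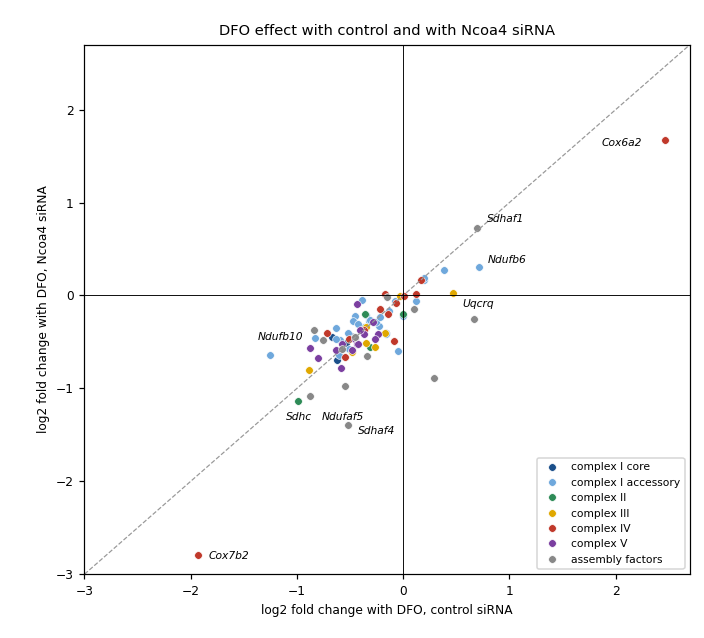
Log2 fold change of each of the 90 members with DFO in siControl cells (horizontal axis) and in siNCOA4 cells (vertical axis), coloured by complex, with the dashed line marking equal change. Most points lie below 0 on both axes and near the line, and Cox6a2 lies alone at the upper right. Pearson r was 0.82 across members and 0.75 across all genes tested, a description over genes of the same libraries.

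The test of the difference itself, the interaction of DFO and Ncoa4 siRNA, gave no call among the members in limma, while 2.1% of all genes were called. An unadjusted p below 0.05 was found for 2 members, 2.22% against 18.2% of all genes. These were Ndufb10 (difference 0.61, SE 0.16, adjusted p = 0.0749) and Ndufa10 (difference 0.34, SE 0.15, adjusted p = 0.267). For Sdhaf4 the difference was -0.88 (SE 0.43, adjusted p = 0.312). Ndufb10 passed the threshold after scaling to genes other than small RNA genes and without siNCOA4 replicate 3, and Sdhaf4 without siControl+DFO replicate 2. The median interaction over the members was -0.01, and 0.08 without siControl replicate 1.

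The comparisons of siNCOA4 with siControl asked what silencing of Ncoa4 did to the same transcripts, and few members were called. At normal iron 3 members fell and 1 rose, 3.33% and 1.11%, against 7.21% and 4.52% of all genes, and 1 member passed the rule with a fold change above 2, against 1.78%. The median log2 fold change was 0.04, and without siControl replicate 1 it was -0.05, with 4 falls and no rise, against 4.63% and 3.19% of all genes. With DFO, siNCOA4+DFO against siControl+DFO gave 3 falls and 1 rise, against 10.2% and 6.22% of all genes, and 1 member passed the fold rule, against 2.09%. The balance of falls and rises depended on scaling. After quantile normalization, 2 members fell and 4 rose at normal iron, against 6.13% and 5.19% of all genes. Under DFO this normalization gave 1 fall and 12 rises, or 1.11% and 13.3% of members against 7.04% and 7.2% of all genes. After scaling to genes other than small RNA genes, 3 fell and 6 rose at normal iron, or 3.33% and 6.67% of members against 4.72% and 7.24% of all genes. Under DFO 1 fell and 10 rose, or 1.11% and 11.1% against 5.58% and 12.1%, and this scaling moved the median of all genes from -0.01 to 0.12. Without siNCOA4 replicate 1 or 2, the single call at normal iron was Cox7b, and without siControl replicate 1 the comparison under DFO gave 4 falls and 5 rises, against 10.9% and 6.68% of all genes.

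Cox7b was the exception, a subunit of complex IV encoded on the X chromosome (chrX:106015700-106022450, GRCm38). It was 103, 169 and 154 FPKM in siControl, 62.8, 59.3 and 62.7 in siNCOA4, 100.5, 100.5 and 91.4 in siControl+DFO and 47.9, 41.9 and 43.6 in siNCOA4+DFO. Every siNCOA4 value was below every siControl value at either iron status. It fell by 1.17 on the log2 scale at normal iron (SE 0.14, adjusted p = 3.23e-04) and by 1.13 under DFO (SE 0.14, adjusted p = 5.63e-04), and no setting tried removed either call. DFO also lowered it, by 0.51 in siControl cells (SE 0.14, adjusted p = 0.0096) and by 0.47 in siNCOA4 cells (SE 0.14, adjusted p = 0.0191), the latter lost without siNCOA4 replicate 1 or 3 or siNCOA4+DFO replicate 2 (adjusted p up to 0.063). The interaction was 0.04 (SE 0.20). No 75-base stretch of its transcript is found in another gene.

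Atp5d, the delta subunit of the ATP synthase stalk, was the other member that fell with Ncoa4 siRNA at both iron levels. Its FPKM was 150, 152 and 147 in siControl and 110, 108 and 115 in siNCOA4, 2 narrow ranges with no overlap, and 97.7, 120 and 112 in siControl+DFO and 85.2, 93.8 and 65.2 in siNCOA4+DFO. The log2 fold changes were -0.43 at normal iron (SE 0.12, adjusted p = 0.0325) and -0.44 under DFO (SE 0.12, adjusted p = 0.024). Both calls were lost after quantile normalization, the first also without any 1 of the siControl or siNCOA4 libraries (adjusted p up to 0.104) and the second without siControl+DFO replicate 2 or 3 or siNCOA4+DFO replicate 3 (up to 0.0931). The second was also lost after scaling to genes other than small RNA genes. Ndufa10, an accessory subunit of complex I, fell at normal iron, with a mean of 74.3 ± 4.03 FPKM in siControl and 53.8 ± 4.55 in siNCOA4 (log2 fold change -0.47, SE 0.11, adjusted p = 0.0157), and Sdha rose from 53.1 ± 0.516 to 63.4 ± 1.87 FPKM (0.26, SE 0.06, adjusted p = 0.0231). Under DFO, Ndufb3 was 28.2, 28.7 and 23.1 FPKM in siControl+DFO and 40.5, 37.2 and 37.3 in siNCOA4+DFO, a rise of 0.53 without overlap (SE 0.14, adjusted p = 0.0226), and Ndufaf2, a complex I assembly factor, fell by 0.76 with overlapping groups (SE 0.21, adjusted p = 0.03). Each of these 4 calls was lost when certain single libraries were left out, siNCOA4 replicate 1 among them for Ndufa10 (adjusted p = 0.0617) and Sdha (0.0797), siControl+DFO replicate 3 for Ndufb3 (0.0805) and siNCOA4+DFO replicate 3 for Ndufaf2 (0.112). The call on Ndufaf2 was also lost after quantile normalization and after scaling to genes other than small RNA genes.

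**Figure D5:**
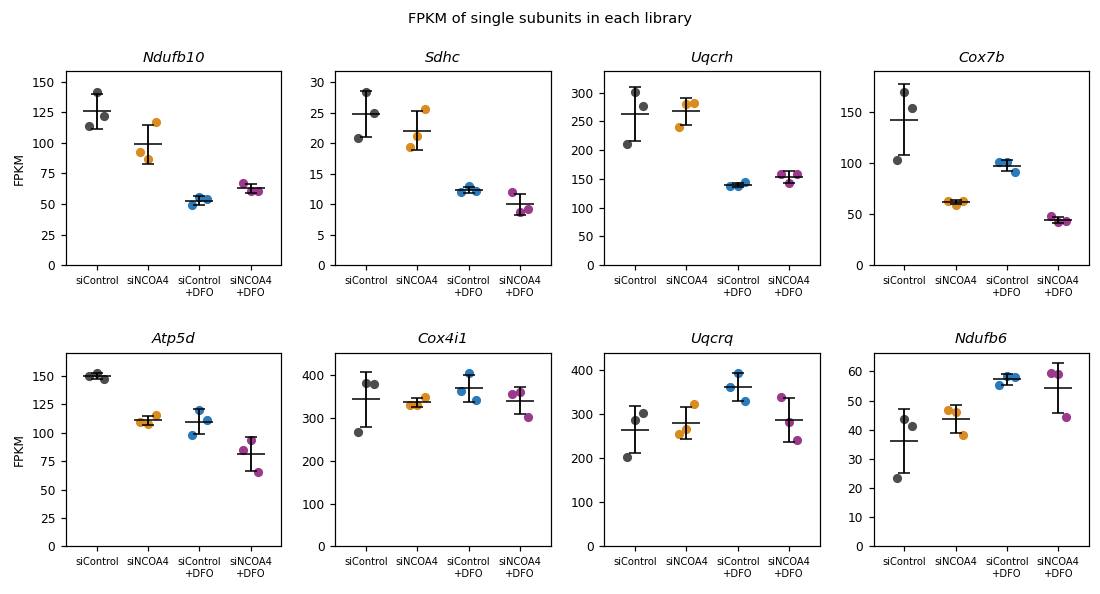
FPKM of 8 subunits (vertical axes, each from 0) in the 4 groups, with 1 point for each of 3 replicates and the mean ± SD. Ndufb10, Sdhc and Uqcrh are lower in both DFO groups, Cox7b and Atp5d are lowest in siNCOA4+DFO, Cox4i1 overlaps between all groups, and the means of Uqcrq and Ndufb6 are highest in siControl+DFO, where Ndufb6 overlaps siNCOA4+DFO.

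The last comparison set cells with both treatments against untreated cells, and shares its libraries with the comparisons above. In siNCOA4+DFO against siControl 40 members fell and 5 rose, 44.4% and 5.56%, against 23.4% and 25.4% of all genes, with a median of -0.33. Without siControl replicate 1, 52 fell and 5 rose, with a median of -0.44, against 22.6% and 24.8% of all genes. After scaling to genes other than small RNA genes 29 fell and 8 rose, or 32.2% and 8.89% of members against 19.0% and 29.6% of all genes. The rule with a fold change above 2 was passed by 7 members, against 15.2% of all genes, namely Cox7b, Sdhc, Ndufa3, Ndufaf2, Ndufaf5 and Ndufaf7, which fell, and Cox6a2, which rose. Cox7b had 142 ± 34.6 FPKM in siControl and 44.5 ± 3.09 in siNCOA4+DFO, which is -1.64 on the log2 scale (SE 0.14, adjusted p = 2.28e-06), and Sdhc from 24.7 ± 3.77 to 9.99 ± 1.74 FPKM, or -1.30 (SE 0.15, adjusted p = 1.66e-05). Atp5d reached -0.90 (SE 0.12, adjusted p = 5.05e-05) and Ndufs8 -0.90 (SE 0.16, adjusted p = 4.76e-04). Besides Cox6a2, rises were called for Ndufb6 (0.62), Sdhaf1 (0.79) and the complex I accessory subunits Ndufa1 (0.58) and Ndufc2 (0.46). Ndufa1 overlapped between groups, at 22.5 to 29.6 against 27.0 to 50.2 FPKM. The calls on Ndufa1, Ndufb6 and Ndufa3 were each lost without siNCOA4+DFO replicate 1 or 2, that on Ndufa1 also without siControl replicate 1 and that on Ndufa3 also without siControl replicate 2 or 3 (adjusted p up to 0.0984).

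Sequence around the start sites was compared because many of these genes fell together. RefSeq windows on GRCm38, from 250 bases before to 50 bases after the start, were found for 77 of the 90 members. Matches on either strand were counted for TGCGCA (part of the site of nuclear respiratory factor 1, NRF1), CCGGAA (the core bound by ETS factors, among them GABP), GGGCGG (the GC box), ACGTG (the core of hypoxia response elements) and AAGATGG (the YY1 core), each motif on its own even where 2 of them overlapped. The NRF1 letters occurred in 27.3% of member windows, 15.0% of windows of genes tested and 8.06% of all 27025 windows, and the ETS core in 37.7, 29.9 and 15.2%. The GC box occurred in 48.1, 65.6 and 35.9%, the hypoxia core in 24.7, 26.6 and 19.7%, and the YY1 core in 14.3, 7.74 and 6.48%. The 40 members with a window that fell with DFO in siControl cells and the 37 that did not held the NRF1 letters in 25.0 and 29.7%, the ETS core in 40.0 and 35.1%, the GC box in 40.0 and 56.8%, the hypoxia core in 20 and 29.7% and the YY1 core in 15.0 and 13.5%, differences in either direction that were not tested. A match is a run of letters and not a measured binding site.

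Windows are shown for 2 members with large falls under DFO, Ndufb10 (chr17:24724374-24724673, minus strand) and Uqcrh (chr4:116075021-116075320, minus strand), for Ndufb6, which rose (chr4:40279372-40279671, minus strand), and for Cox7b, which fell with Ncoa4 siRNA (chrX:106015450-106015749, plus strand). They read 5′ to 3′ on the strand of the gene, with matches to the motifs, or to their reverse complements, in capitals.
Ndufb10: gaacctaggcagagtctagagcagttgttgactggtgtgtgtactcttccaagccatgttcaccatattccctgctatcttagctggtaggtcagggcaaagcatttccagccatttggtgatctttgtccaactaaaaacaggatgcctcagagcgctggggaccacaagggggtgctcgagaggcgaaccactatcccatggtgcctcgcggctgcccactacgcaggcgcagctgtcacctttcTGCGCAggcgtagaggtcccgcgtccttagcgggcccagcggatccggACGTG
Uqcrh: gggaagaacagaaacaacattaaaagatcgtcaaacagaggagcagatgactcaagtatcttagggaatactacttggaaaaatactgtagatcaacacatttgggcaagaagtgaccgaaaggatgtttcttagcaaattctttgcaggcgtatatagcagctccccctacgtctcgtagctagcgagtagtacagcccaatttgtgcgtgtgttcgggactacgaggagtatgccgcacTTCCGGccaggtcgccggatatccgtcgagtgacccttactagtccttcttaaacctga
Ndufb6: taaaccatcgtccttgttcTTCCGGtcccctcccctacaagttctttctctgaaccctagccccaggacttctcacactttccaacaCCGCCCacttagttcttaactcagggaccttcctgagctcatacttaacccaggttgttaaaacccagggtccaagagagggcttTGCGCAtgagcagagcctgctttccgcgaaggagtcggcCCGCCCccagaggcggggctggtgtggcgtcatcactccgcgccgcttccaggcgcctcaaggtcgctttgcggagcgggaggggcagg
Cox7b: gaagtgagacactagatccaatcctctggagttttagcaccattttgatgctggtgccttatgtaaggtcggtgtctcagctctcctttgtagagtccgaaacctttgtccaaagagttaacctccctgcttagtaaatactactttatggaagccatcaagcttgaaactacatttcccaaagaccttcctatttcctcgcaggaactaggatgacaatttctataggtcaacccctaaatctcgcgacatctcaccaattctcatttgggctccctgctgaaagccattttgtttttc
Ndufb10 held an NRF1 letters and a hypoxia core, Uqcrh an ETS core, and Ndufb6 an ETS core, an NRF1 letters and 2 GC boxes. The Cox7b window held none of the 5 motifs, which says only that these letters are absent from these 300 bases.

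Genes of the same pathway that lie outside the name rule fell and rose with DFO in siControl cells, where 25.7% of all genes fell and 27.7% rose. Of 7 tested genes of complex III and cytochrome c, 3 fell and 2 rose, or 42.9% and 28.6%. Uqcc2, a complex III assembly factor, fell by 0.95 (SE 0.25, adjusted p = 0.00587), and Ttc19, which clears fragments of Uqcrfs1 from the complex, rose by 0.70 (SE 0.13, adjusted p = 5.94e-04). Of 24 complex IV assembly genes 11 fell and 3 rose, or 45.8% and 12.5%, and the largest change was in Higd1a, a hypoxia-induced protein that associates with complex IV. Higd1a was 22.3, 23.8 and 19.1 FPKM in siControl and 115, 95.5 and 102 FPKM in siControl+DFO, far apart, and rose by 2.26 (SE 0.11, adjusted p = 1.38e-08). Of 5 genes of complex V assembly and inhibition 2 fell, among them the inhibitor Atpif1 by 0.79 (SE 0.13, adjusted p = 2.52e-04), and of 7 complex I assembly genes outside the rule 1 fell, Tmem186, or 14.3%. Ecsit, another of these 7, fell with Ncoa4 siRNA under DFO from 13.0, 13.1 and 14.9 to 7.46, 9.76 and 6.85 FPKM, with no overlap (log2 fold change -0.77, SE 0.15, adjusted p = 0.00468).

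Of 11 nuclear regulators of respiratory genes, 3 fell and 4 rose with DFO in siControl cells, or 27.3% and 36.4%, shares near those of all genes. The coactivator Ppargc1b was 4.28, 3.93 and 5.33 FPKM in siControl and 1.67, 1.19 and 1.82 in siControl+DFO, a fall of 1.48 (SE 0.27, adjusted p = 6.56e-04). Its relative Ppargc1a fell by 1.38 (SE 0.21, adjusted p = 1.22e-04), from 3.50 to 4.08 FPKM in siControl to 1.37 to 1.54 FPKM in siControl+DFO. In siNCOA4 cells Ppargc1a was at 1.94 to 2.96 FPKM without and 2.19 to 3.00 FPKM with DFO, and the interaction was called (1.46, SE 0.29, adjusted p = 0.0283). Gabpb1, the beta subunit of GABP, rose by 2.05 on the log2 scale, with 13.7, 9.08 and 10.5 FPKM in siControl and 46.6, 46.7 and 43.8 in siControl+DFO (SE 0.17, adjusted p = 1.05e-06).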

How the data were processed

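Libraries of total RNA from 12 samples of HT22 cells were analysed, prepared with a kit that marks strand and accepts small inputs. The authors deposited 1 FPKM value per gene and library, per the file headers and the values, and the submitters' processing notes name Trimmomatic 0.33, FastQC, HISAT2 2.1.0, featureCounts, edgeR and mm10, without saying how the FPKM were made or whether strand was used in counting. FPKM are not counts, so total counts per library and counting intervals cannot be given, and relative depth was estimated from the steps of low values (0.928 to 1.41, with siControl replicate 1 at 1). Groups and replicate numbers came from the sample labels.

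Of 24347 gene entries, 4 that shared a name were left out, and 11924 genes with at least 0.5 FPKM in at least 3 libraries were tested. Log2(FPKM + 0.1) was modelled as 4 group means (limma 3.58.1 under R 4.3.3), with empirical Bayes moderation and a mean-variance trend (8 residual and 4.07 prior degrees of freedom), with Benjamini-Hochberg adjustment over all genes of a comparison. Paralog ratios were compared with exact two-sided permutation tests. On simulated data with 200 of 11924 genes changed in siControl+DFO against siControl, 70.0% of changes of 1 log2 unit and 86.0% of 1.5 units were recovered, with 10 of 166 calls false. For the interaction 63.0% and 71.0% were recovered, with 4 of 138 calls false. In the data 6365 genes were called with DFO in siControl cells, and the median change of the members was -0.37. The simulated rates therefore do not carry over to the member calls, or to interactions smaller than 1 log2 unit. Windows of 75 bases shared with other genes, exon overlaps and promoters were taken from GRCm38 with Python 3.11.15.

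The members and the lists of complexes, neighbours and markers were chosen with earlier results of these data known. Named genes were the 5 markers, the iron-sulfur or heme subunits, paralog pairs, the largest called rise and fall without overlap in each complex and comparison, members called with a fold change above 2, the 3 largest changes in each neighbour list, and Ncoa4. A few other members (Atp5b, Cox6c, Cox5b, Cox7a2, Cox8a, Ndufa1, Ndufc2, Atp5j2, Atp5l, Atp5s, Cox7b2) were named after their values were seen, as were the neighbours Cyc1 and Cycs. One member is counted throughout, but its own values are not reported here. Replicate numbers did not pair the samples. Alternatives were pseudocounts of 1 and 0.01, no filter and a filter at 2 FPKM, median-of-ratios and quantile normalization, the replicate number as a block, the compared groups alone, moderation without trend or robust, stricter calls, each library left out, and, chosen after seeing the data, scaling to genes other than small RNA genes.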

Additional observations from a re-analysis of the deposited data

How the results depend on the processing

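Calls among the 90 members with DFO kept their direction under every setting tried. Leaving the stricter call rules aside, 33 of 49 in siControl cells and 28 of 46 in siNCOA4 cells passed an adjusted p below 0.05 under all settings. For both treatments together it was 29 of 45, and for Ncoa4 siRNA 1 of 4 at either iron level, Cox7b. When each library was omitted in turn, the number of members called ranged from 1 (without siNCOA4 replicate 1 or 2) to 5 for siNCOA4 against siControl, from 36 (without siControl replicate 3) to 62 (without siControl replicate 1) for DFO in siControl cells, from 35 (without siControl replicate 3 or siNCOA4+DFO replicate 2) to 57 (without siControl replicate 1) for both treatments, from 1 (without siControl+DFO replicate 3) to 9 (without siControl replicate 1) for Ncoa4 siRNA under DFO, from 32 to 48 for DFO in siNCOA4 cells, and from 0 to 1 (without siNCOA4 replicate 3 or siControl+DFO replicate 2) for the interaction. Without siNCOA4+DFO replicate 1 or 3 the count for Ncoa4 siRNA under DFO was 2, as it was with the groups of the comparison alone. Quantile normalization gave 13 calls there. Scaling to genes other than small RNA genes, chosen after seeing the data, gave 11 calls there, 9 for siNCOA4 against siControl and 1 for the interaction. With a fold change above 2 also required, 1, 2, 7, 1 and 3 members were called for siNCOA4 against siControl, DFO in siControl cells, both treatments, Ncoa4 siRNA under DFO and DFO in siNCOA4 cells, and at an adjusted p below 0.01 the counts were 1, 31, 28, 1 and 25, since these rules are stricter. For the other moves the cause was not tested.

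Same-numbered libraries did not deviate together (r from -0.127 to 0.116, above 0.1 in 2 of 18 pairs), and 3 of 12 libraries correlated best with one of their own number. With the replicate block, 4, 48, 46, 3, 46 and 0 members were called, the interaction last, against 4, 49, 45, 4, 46 and 0 without it. Depth limits the low members most, such as Cox6a2, Cox7b2 and Atp5s, for which FPKM near 0 gives no limit of detection.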
